A study of Mus musculus with 12 samples.

Results

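The nuclear genes for subunits of the oxidative phosphorylation complexes were examined in ATAC-seq peak lists from normal and leukaemic mouse marrow. ATAC-seq maps DNA that a transposase can reach, and a peak is a stretch where its insertions pile up. The genes were chosen by symbol alone: protein-coding autosomal genes whose symbol starts with Ndufa, Ndufb, Ndufc, Ndufs, Ndufv, Uqcr, Cox4 to Cox8 or Atp5, with Sdha, Sdhb, Sdhc and Sdhd. The rule gave 85 of 20665 protein-coding autosomal genes in RefSeq, of which 39 belong by symbol to complex I, 4 to complex II, 8 to complex III, 17 to complex IV and 17 to complex V. Cox7b, Ndufa1 and Ndufb11 lie on X and were not analysed here, and Ndufaf and Sdhaf assembly factors were not counted as subunits.

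Oxidative phosphorylation turns the energy of NADH and succinate into ATP at the inner mitochondrial membrane. Complexes I and II pass electrons to ubiquinone, complex III hands them to cytochrome c, complex IV delivers them to oxygen, and complex V, the ATP synthase, uses the proton gradient so built. Most subunits are encoded in the nucleus by genes with housekeeping promoters, on which NRF1, GABP, YY1 and oestrogen-related receptors are known to act. Several subunits also exist as isoforms made mainly in muscle, lung or testis.

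All 12 libraries came from CD45.2+ cells of C57BL/6 bone marrow, 150000 sorted cells each, with 3 libraries per group. Control cells carried the genotype CD45.2(+) without a fusion, BN1 cells BRD9-NUTM1, MA9 cells MLL-AF9 and ME cells MLL-ENL, the last 3 being leukaemic cells. BRD9-NUTM1 joins a chromatin remodelling subunit to a testis protein that recruits an acetyltransferase, and the MLL fusions join a histone methyltransferase to elongation factors. The labels gave neither the promoter driving the fusions, the age of the mice, the gate beyond CD45.2 nor whether replicates were separate animals. P-values therefore measure only the spread between these samples, which may be technical.

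List length set the scale for every comparison. Lists held 25541 to 28023 peaks in Control, 31968 to 33588 in MA9, 8546 to 9663 in ME and 3011 to 4258 in BN1, and read depth is unknown. A gene was counted as called in a library when a listed peak lay within 1 kb of either gene end. The leucocyte genes Ptprc, Spi1, Coro1a and Laptm5 all had gene-end peaks in the 3 Control libraries. Spi1 was called in all 3 BN1 and all 3 ME libraries, Laptm5 in 2 BN1 and 3 ME, Coro1a in 0 BN1 and 1 ME, and Ptprc in none of these 6. B cell markers were called for 6 of 6 genes in Control, neutrophil markers for 6 of 6 and erythroid markers for 5 of 5. In BN1 and ME none of these 17 genes was called in all 3 libraries, and in MA9 1, 3 and 1 were. The part of this difference in cell makeup in the results below was not tested, and open chromatin in fewer cells cannot be told apart from less open chromatin in each cell.

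Promoter sequence is shown first for genes at the extremes of the results: Ndufs8 and Ndufb5, which were called in all 12 libraries, and Uqcrh, Uqcr10 and Cox8a, which ranked high in Control and had no peak in BN1. Ndufs8 encodes an iron-sulphur core subunit of complex I, and Ndufb5 an accessory subunit of its membrane arm. Uqcrh encodes the hinge protein of complex III, Uqcr10 another small complex III subunit, and Cox8a the subunit VIII isoform of complex IV found in most tissues. Uqcrq was also among the genes chosen for this display. The windows run 5′ to 3′ from 250 bases before the annotated start to 30 after it (RefSeq, GRCm38.p6), at chr19:3912745-3913024 on the minus strand, chr3:32736813-32737092 on the plus strand, chr4:116075041-116075320, chr11:4704315-4704594 and chr19:7217587-7217866 on the minus strand. Capitals mark matches, on either strand, to any of the 10 motifs searched.
Ndufs8: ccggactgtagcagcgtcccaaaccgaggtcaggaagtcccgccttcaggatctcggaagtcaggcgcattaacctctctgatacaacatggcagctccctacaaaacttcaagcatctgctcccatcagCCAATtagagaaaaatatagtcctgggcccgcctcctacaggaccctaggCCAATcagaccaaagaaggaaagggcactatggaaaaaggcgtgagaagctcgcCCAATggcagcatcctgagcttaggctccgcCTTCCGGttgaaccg
Ndufb5: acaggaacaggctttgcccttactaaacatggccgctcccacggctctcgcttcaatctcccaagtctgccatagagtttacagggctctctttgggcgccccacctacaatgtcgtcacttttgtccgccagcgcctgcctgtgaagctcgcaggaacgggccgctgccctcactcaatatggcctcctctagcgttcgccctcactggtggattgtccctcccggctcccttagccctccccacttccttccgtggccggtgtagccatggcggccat
Uqcrh: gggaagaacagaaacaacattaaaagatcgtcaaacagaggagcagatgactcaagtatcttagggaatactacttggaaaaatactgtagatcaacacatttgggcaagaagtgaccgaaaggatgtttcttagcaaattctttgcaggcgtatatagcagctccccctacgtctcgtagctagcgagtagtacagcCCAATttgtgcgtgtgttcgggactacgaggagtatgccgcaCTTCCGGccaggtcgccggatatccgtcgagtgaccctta
Uqcr10: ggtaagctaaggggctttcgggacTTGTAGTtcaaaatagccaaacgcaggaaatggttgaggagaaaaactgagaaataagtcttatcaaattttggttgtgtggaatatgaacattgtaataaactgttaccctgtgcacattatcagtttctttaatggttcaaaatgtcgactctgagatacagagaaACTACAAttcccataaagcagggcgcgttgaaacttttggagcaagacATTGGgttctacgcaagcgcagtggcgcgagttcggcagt
Cox8a: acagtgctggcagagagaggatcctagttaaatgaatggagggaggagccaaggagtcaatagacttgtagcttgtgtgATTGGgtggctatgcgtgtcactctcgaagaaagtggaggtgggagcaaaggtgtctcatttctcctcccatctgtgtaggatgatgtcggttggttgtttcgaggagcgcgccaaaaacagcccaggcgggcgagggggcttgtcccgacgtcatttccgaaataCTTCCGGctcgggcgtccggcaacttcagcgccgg

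In these windows Ndufs8 held 3 CCAAT matches beginning 120, 70 and 16 bases before the start and an ETS match 15 bases after it, and Ndufb5 held none of the motifs. Uqcrh held CCAAT at 52 and ETS at 10 bases before its start, and Cox8a held the same pair at 171 and 5 bases before. Uqcr10 held a ZNF143 match at 226 and another at 58 bases before its start, with CCAAT at 10. Genes called in every library and genes not called in BN1 thus shared motifs in these examples.

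RefSeq promoter windows of 250 bases before to 50 after a start were found for 68 of the 85 genes (73 windows). Each motif was sought by its letters on both strands. NRF1 (GCATGCGC) occurred in 13.7% of subunit gene windows, 3.55% of all 20085 windows and 5.67% of the 8889 windows of other genes with peaks in all 3 Control libraries. The YY1 letters AAGATGGC occurred in 13.7%, against 3.06% and 4.87%. For ZNF143 (ACTACAA) the shares were 13.7%, 3.71% and 4.70%, for the oestrogen-related receptor motif AAGGTCA 11.0%, 4.03% and 2.98%, and for the ETS motif CCGGAAG of GABP 23.3%, 11.9% and 20.05%. The motifs were searched separately, so matches may overlap.

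The SP/KLF letters GGGCGG went the other way, with 39.7% of subunit gene windows, 47.0% of all windows and 63.8% of the other genes open in Control. CCAAT (39.7%, 38.1% and 39.7%) and the E-box CACGTG (9.59%, 7.89% and 10.5%) differed little. The cyclic AMP response element TGACGTCA was found in 5.48%, 2.30% and 3.37%, and TATAAA in 12.3%, 12.7% and 6.55%. Median GC content was 57.7% in subunit gene windows and 60.7% in those of other genes open in Control. Subunit genes with at least 1 BN1 peak (19 windows) and those open in Control without any (44 windows) held NRF1 in 15.8% and 13.6%, YY1 in 15.8% and 13.6%, and ZNF143 in 15.8% and 11.4%. For ETS the shares were 21.1% and 29.5%, for the oestrogen-related receptor motif 5.26% and 15.9%, for TATAAA 5.26% and 13.6%, and for CCAAT 36.8% and 43.2%. SP/KLF stood at 42.1% and 38.6%, the cyclic AMP element at 5.26% and 6.82%, and the E-box at 10.5% and 9.09%. In the first class 5.26% is a single window, and these differences were not tested. A match is a description of the letters, not evidence of binding.

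Subunit genes were called more often than other genes in every library, and in lists as deposited the ratio was smallest in BN1. The 3 Control libraries had such peaks at 73, 70 and 71 of the 85 genes, the MA9 libraries at 73, 71 and 71, the ME libraries at 49, 48 and 47 and the BN1 libraries at 18, 12 and 16. The Control and MA9 ranges overlapped, while ME and BN1 lay apart from them and from each other. The mean shares were 83.9 ± 1.80% for Control, 84.3 ± 1.36% for MA9, 56.5 ± 1.18% in ME and 18.04 ± 3.59% in BN1 (mean ± SD, n = 3). Other genes reached 44.3 ± 0.717%, 46.7 ± 0.530%, 28.7 ± 1.14% and 12.5 ± 2.04%. The ratio of the shares was highest in ME at 1.97 ± 0.0456, followed by Control at 1.89 ± 0.0110, MA9 at 1.81 ± 0.00854 and BN1 at 1.44 ± 0.109. This order came from lists of different length and did not hold at equal length. With the 8546 strongest peaks Control had a mean of 2.30 and ME 1.94. With 3011 peaks BN1 had 1.28 and MA9 1.24, with overlapping ranges.

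Counting genes called in all 3 libraries of a group gave 70 subunit genes for Control (82.4%), 71 for MA9 (83.5%), 42 for ME (49.4%) and 10 for BN1 (11.8%). Among all 20665 genes the same call was made for 43.0% (Control), 45.4% (MA9), 26.9% (ME) and 10.1% (BN1). The BN1 share was thus close to that of all genes, and the count in BN1 was 16 without replicate 2, the shortest list.

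**Figure D1:**
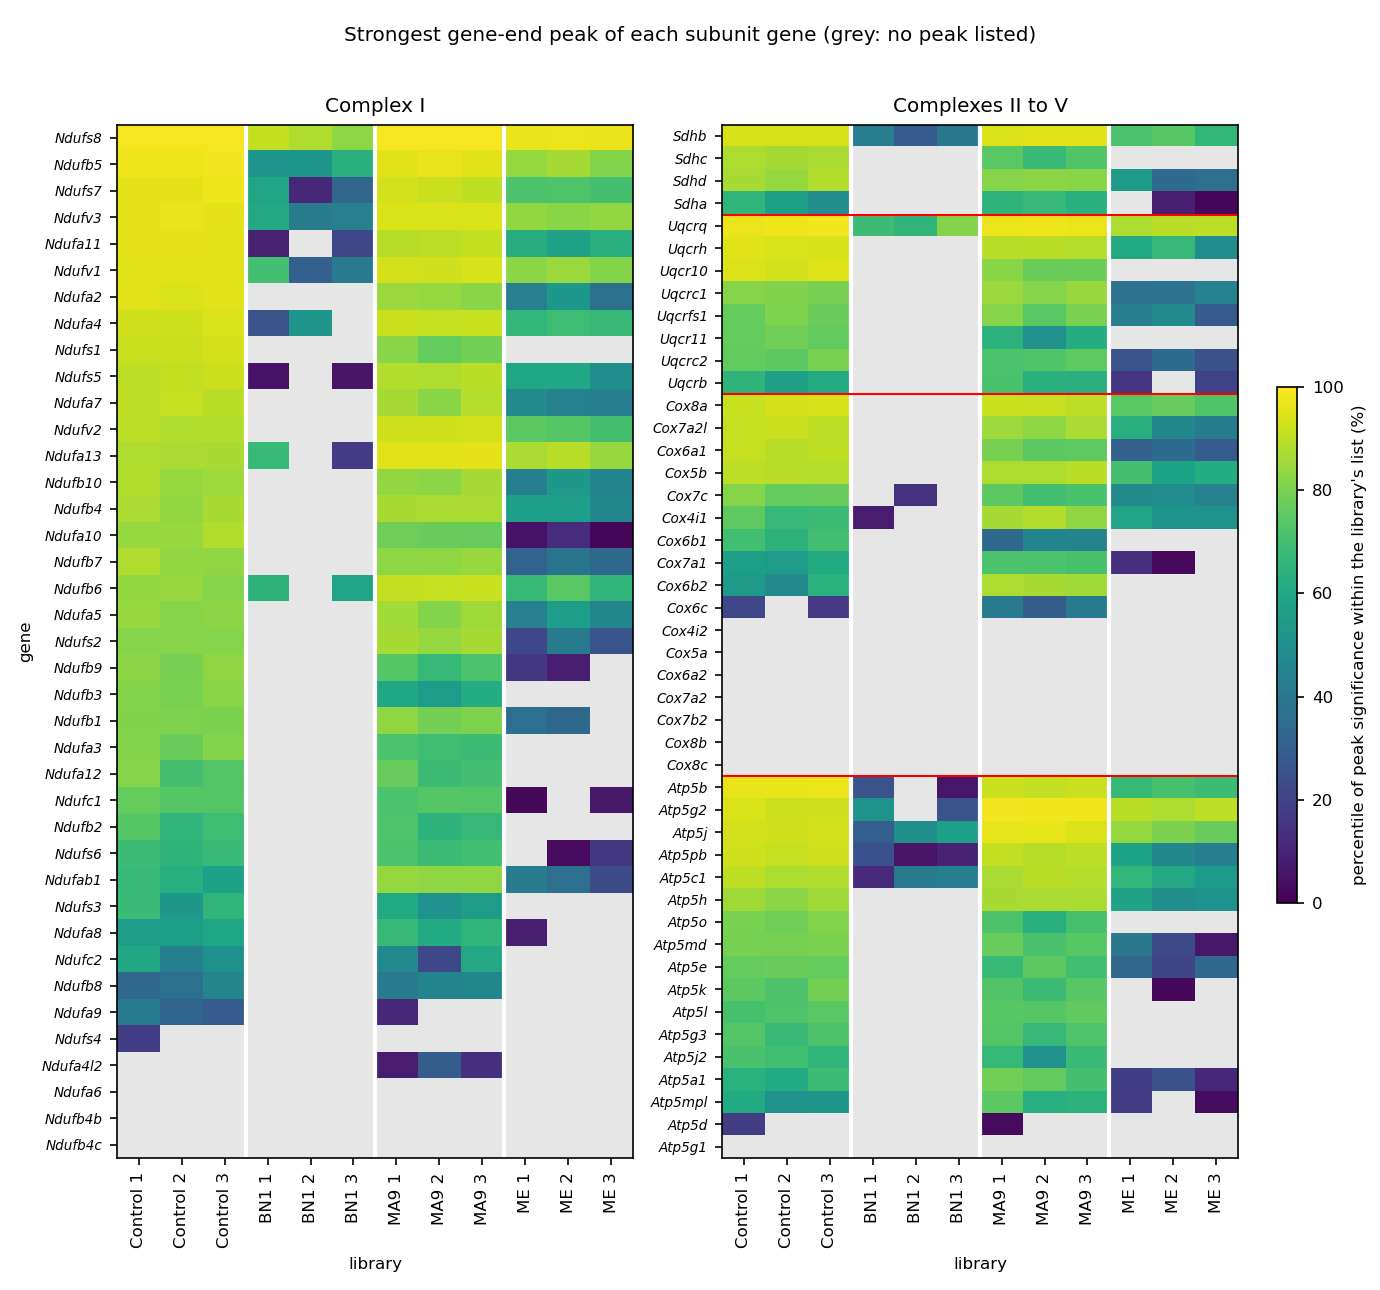
Percentile of peak significance, within each library's list, of the strongest gene-end peak of the 85 subunit genes (rows, italic symbols) in the 12 libraries (columns), for complex I on the left and complexes II to V, divided by red lines, on the right; grey marks genes with no listed peak. Control and MA9 columns are filled for 70 to 73 genes, ME columns for 47 to 49 and BN1 columns for 12 to 18.

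Peaks at these genes sat on the transcription start. Where the start was known, the strongest peak overlapped it in 97.2% of gene and library pairs for Control, 97.7% for MA9, 90.8% for ME and 78.6% for BN1. The summit lay at a median position of -56 bases relative to the start in Control. Of 73 genes with a Control peak, 36 shared it with an end of another protein-coding gene within 1 kb, so that the accessible DNA is common to both genes. Atp5j, for coupling factor 6 of the ATP synthase, shared its peak with Gabpa, which encodes the DNA-binding subunit of GABP. Ndufb5 shared its peak with Mrpl47, a mitochondrial ribosomal protein gene, and Sdhd with Timm8b, a mitochondrial import gene.

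Peak strength was expressed as the percentile of the deposited −log10 p within the library's own list, so that a high value marks one of the stronger peaks of that list. Since the lists differ in length, such percentiles give a rank within a library's own list, and orders between groups were read from the equal-length lists described further on. Median percentiles over peaks at subunit genes were 81.3 ± 0.506 in Control and 78.0 ± 1.70 in MA9, above the 71.0 ± 0.630 and 74.0 ± 0.602 of peaks at other genes (n = 3). In the short lists the order turned, with 48.1 ± 2.38 against 59.6 ± 0.765 in ME and 37.4 ± 6.67 against 55.5 ± 0.371 in BN1. Subunit gene peaks were thus of upper middle strength in the long lists and of lower middle strength in the short ones. Their median width was 524 ± 49.7 bases in Control, where other genes' peaks of the same percentile had 580 ± 18.5 bases. The matching widths were 627 ± 40.6 and 631 ± 39.1 in MA9, 312 ± 8.78 and 350.2 ± 6.70 in ME, and 334 ± 21.6 and 327 ± 6.87 in BN1.

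Called in all 12 libraries were 10 genes: Ndufb5, Ndufs7, Ndufs8, Ndufv1 and Ndufv3 of complex I, Sdhb of complex II, Uqcrq of complex III, and Atp5c1, Atp5j and Atp5pb of complex V. They include Ndufv1, which binds NADH, Sdhb, the iron-sulphur subunit of succinate dehydrogenase, and Atp5c1, the central stalk subunit of ATP synthase. No complex IV gene was among them. By mean percentile over the 12 libraries the leading 5 were Ndufs8 (95.3%), Uqcrq (88.9%), Ndufb5 (83.4%), Ndufv3 (80.7%) and Ndufv1 (79.8%). The count and ranking hold for gene-end peaks only, since Atp5d, described below, had peaks at its annotated start in all 12 libraries.

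Ndufs8 stood at percentiles of 98.6, 98.7 and 98.6 in Control, 90.8, 87.9 and 82.9 in BN1, 98.8, 98.5 and 98.7 in MA9 and 96.5, 97.2 and 96.8 in ME. It was among the stronger peaks of every list. The Ndufs8 peak of Control replicate 1 spanned chr19:3912415-3913340 and that of BN1 replicate 2 the narrower chr19:3912686-3913094, both over the start. An end of Aldh3b1 lies within 1 kb of it. Uqcrq, for a small subunit of complex III, reached 97.2, 97.4 and 98.1 in Control and 97.3, 97.5 and 97.1 in MA9. In ME it reached 87.6, 89.6 and 90.01, and in BN1 68.5, 65.2 and 81.5. In lists of equal length (the 3011 strongest peaks) Uqcrq stood at 74.4 to 82.2 in Control, 55.4 to 78.9 in BN1, 69.3 to 73.2 in MA9 and 60.3 to 71.6 in ME, so the groups overlapped, and it did not pass the 4-group test (exact permutation test, adjusted p = 0.236).

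Called in all 9 libraries outside BN1 and in 1 or 2 of BN1 were 9 genes: Ndufa4, Ndufa11, Ndufa13, Ndufb6, Ndufs5, Cox4i1, Cox7c, Atp5b and Atp5g2. For Ndufa4, Ndufa11, Ndufa13 and Ndufb6 the strongest BN1 peak did not cover the gene's own start. The Ndufb6 peak lay at the far end of the gene, near Topors and Smim27, and at its own start Ndufb6 had no BN1 peak and 2 of 3 ME peaks. The BN1 peaks of Ndufa13 had summits at -1256 and -1248 bases relative to its start, near Tssk6, and those of Ndufa11 lay near Vmac. So 13 of the 17 genes with a known start and a BN1 peak had it over that start.

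No gene-end peak was listed in any library for 11 genes: Ndufa6, Ndufb4b, Ndufb4c, Cox4i2, Cox5a, Cox6a2, Cox7a2, Cox7b2, Cox8b, Cox8c and Atp5g1. Cox5a and Cox7a2 were there because of the outer gene bounds used, since their annotated starts lie 3904 and 4612 bases inside. At its start Cox5a, a complex IV subunit next to the catalytic core, had peaks in 3 Control libraries (73.6, 68.2 and 72.4 percentile), 3 MA9 libraries (91.7, 89.6 and 88.7), 3 ME libraries (61.9, 65.1 and 61.3) and BN1 replicate 1 (42.7). Cox5a was thus called at its start in 10 of 12 libraries. Cox7a2 had start peaks in all Control, MA9 and ME libraries, at mean percentiles of 90.7, 86.8 and 53.2, and none in BN1. Atp5d, the delta subunit of ATP synthase, was called at its gene ends in only 2 libraries, but at its start, 3553 bases from the end, it had peaks in all 12, with mean percentiles of 98.8 for Control, 97.7 for MA9, 92.2 for ME and 74.7 for BN1.

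Of the 8 tissue-restricted isoforms, 5 were among the genes without any peak: the lung isoform Cox4i2, the muscle isoforms Cox6a2 and Cox8b, and Cox7b2 and Cox8c, known from testis. Cox7a1, a muscle isoform, was called at percentiles of 56.5, 54.8 and 60.6 in Control, 71.5, 71.6 and 71.0 in MA9 and 13.3 and 2.40 in 2 ME libraries. Cox6b2, a testis isoform, was called at 53.7, 47.0 and 64.0 in Control and 87.5, 86.9 and 86.1 in MA9, and in neither ME nor BN1. Neither was in any list of equal length, so Control and MA9 were not compared for them. The Cox6b2 peak covered its start in every library but Control replicate 2 and lay within 1 kb of Fam71e2. Ndufa4l2, a paralogue of Ndufa4 induced by hypoxia, was called in MA9 alone, at 7.97, 29.7 and 13.7, with the peak also near Stac3.

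Against Control, most subunit genes had no peak in BN1 and fewer lacked one in ME, while each kept one in at least 1 MA9 library. A gene was called lost when all 3 Control libraries and no library of the leukaemia had a gene-end peak, and gained in the reverse case. This is a description, since 3 libraries against 3 cannot go below p = 0.1 in an exact permutation test. In BN1, 51 of 70 genes were lost (72.9%), beside 64.3% of all genes called in Control. In ME 18 of 70 were lost (25.7%), beside 30.8%, and in MA9 0 of 70, beside 4.24%. Gained were 0 of the 10 genes called in BN1 (0.0961% among all genes), 0 of the 42 called in ME (1.04%) and 1 of the 71 called in MA9 (7.63%), which was Ndufa4l2.

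Loss was spread over the complexes. In BN1 it took 24 of the 34 complex I genes called in Control, 3 of 4 in complex II, 7 of 8 in complex III, 7 of 9 in complex IV and 10 of 15 in complex V. In ME it took 9, 1, 2, 2 and 4 of these genes. All 4 complex II and all 8 complex III genes were called in every Control and MA9 library. In complex IV, 9 of 17 genes were called in all Control libraries and 7 of 10 once the isoforms of muscle, lung and testis were left out. These counts leave out Cox5a and Cox7a2, which had peaks in all 3 Control libraries at their annotated starts but not at the gene ends. No difference between complexes was tested.

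The 10 lost genes with the highest Control percentiles in BN1 were Ndufa2, Uqcrh, Uqcr10, Cox8a, Ndufs1, Cox7a2l, Ndufa7, Cox6a1, Cox5b and Ndufv2. Ndufs1 and Ndufv2 encode iron-sulphur core subunits of complex I, and Ndufa2 and Ndufa7 accessory subunits. Their mean Control percentiles ran from 95.2 (Ndufa2) to 88.9 (Ndufv2). Uqcrh stood at 95.0, 94.4 and 94.0 in Control, 89.1, 89.6 and 88.7 in MA9 and 60.6, 67.1 and 49.6 in ME. In lists of equal length Uqcrh was called in the 3 Control libraries and in no MA9 or ME library, so MA9 and ME cannot be ordered there. Cox8a reached 91.8, 93.6 and 94.1 in Control, 91.5, 91.6 and 90.2 in MA9 and 74.4, 76.7 and 72.9 in ME. Of the 10, Uqcr10 and Ndufs1 were absent from ME as well.

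Lost in ME with the highest Control percentiles were Uqcr10, Ndufs1, Sdhc, Ndufb3, Ndufa3, Atp5o, Uqcr11, Ndufa12, Atp5l and Atp5g3. Sdhc anchors succinate dehydrogenase in the membrane, Atp5o is the stalk protein OSCP, and Atp5g3 encodes a copy of the rotor ring subunit c. Uqcr10 stood at 94.9, 93.3 and 95.1 in Control and 82.1, 77.5 and 77.7 in MA9. Ndufs1 stood at 91.6, 92.2 and 93.4 in Control and 82.2, 76.4 and 79.1 in MA9, and it shares the peak with Eef1b2. In lists of equal length both were called in the 3 Control libraries and in no MA9 library. The other 8 had mean Control percentiles of 70.9 (Atp5g3) to 87.2 (Sdhc). Every one of the 18 genes lost in ME was lost in BN1 too. The 3 comparisons with Control share the Control libraries.

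Between leukaemias the shorter list again lacked peaks of the longer one. Called in all MA9 and no BN1 library were 52 of 71 genes (66.1% among all genes called in MA9), led by Ndufv2, Cox8a, Uqcrh, Cox5b and Atp5h, a peripheral stalk subunit. In ME and not BN1 there were 23 of 42 (43.2% among all), led by Cox8a, Ndufv2, Cox5b, Uqcrh and Ndufb4. In MA9 and not ME there were 19 of 71 (32.8% among all), led by Cox6b2, Ndufs1, Uqcr10, Atp5l and Sdhc. Ndufv2 stood at 92.7, 92.8 and 93.1 in MA9, 89.98, 88.0 and 88.7 in Control and 74.8, 73.7 and 70.5 in ME, each within lists of different length. In lists of equal length it was called in all MA9 libraries (18.6, 23.3 and 26.2), all ME libraries (19.2, 16.1 and 16.3) and 1 Control library (8.42), so that ME lay above Control.

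Genes kept in BN1 were the stronger ones in Control. The 19 genes called in Control and at least 1 BN1 library had a median Control percentile of 93.2 (70.2 to 98.7). The 51 without a BN1 peak had a median of 79.8 (34.2 to 95.2), so the ranges overlapped. For the 23 of them called in all ME libraries it was 85.7, and for the 18 without any ME peak 71.7. The MA9 percentiles followed the same order, with medians of 91.9, 73.9, 83.8 and 68.3.

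To allow for strength, subunit genes were set against other genes in the same bins of 5 percentile points of mean Control percentile. Among the 70 genes called in Control, the BN1 libraries called 18, 12 and 16, where the rates of other genes would have given 26.2, 18.3 and 21.3. The difference was -9.42 ± 2.12 percentage points (SD, n = 3) and negative in 3 of 3 libraries. In ME it was -5.02 ± 1.19 points (a mean of 48.0 genes called against 51.5), negative in 3 of 3, and in MA9 1.61 ± 0.695 points, positive in 3 of 3. By this measure subunit genes were called less often in BN1 and ME than other genes of like Control strength. The direction turned when the strength was taken from another group: with MA9 percentiles the difference was 1.19 ± 1.57 points in BN1 and 1.11 ± 2.57 in ME, and with ME percentiles, a reference chosen after seeing the data, it was 3.299 ± 2.44 in BN1. In lists cut to equal length all 3 leukaemias lay below other genes, with differences of -13.7 ± 3.09 points in BN1, -12.8 ± 5.14 in ME and -16.2 ± 3.08 in MA9. There the base was not the 70 genes but the fewer called in all 3 Control libraries at that length. That set was chosen by high Control rank, and no other reference was tried.

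**Figure D2:**
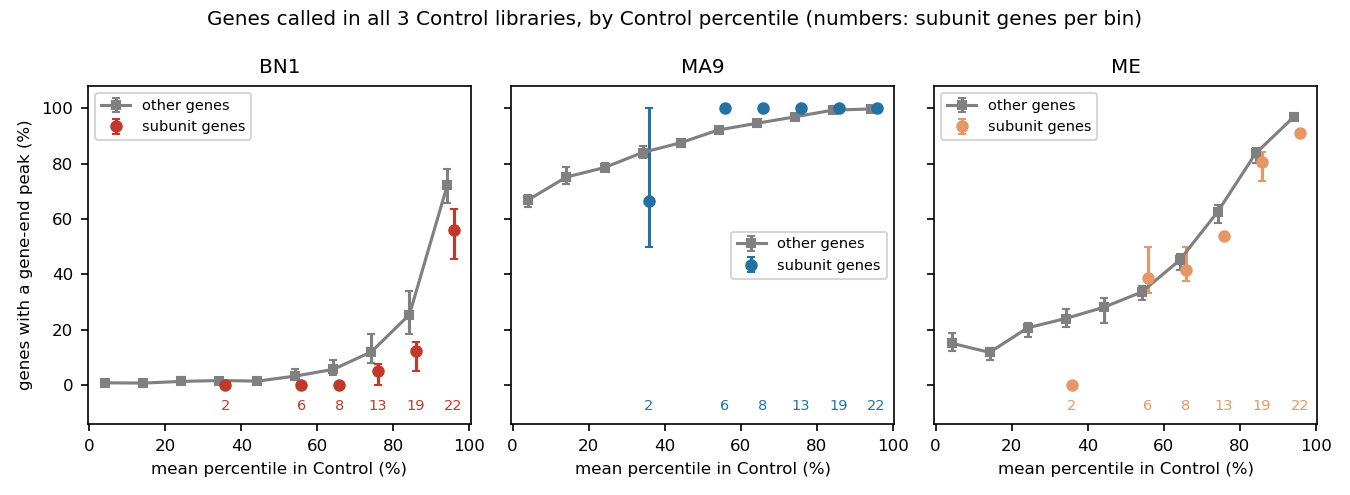
Share of genes with a gene-end peak in BN1, MA9 and ME (y axis, %) against their mean Control percentile (x axis, bins of 10 points), for subunit genes (coloured) and other genes (grey) called in all 3 Control libraries; points are means and bars the range over 3 libraries, and the numbers give subunit genes per bin. In the top bin 56.1% of 22 subunit genes and 72.4% of other genes were called in BN1.

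Bins of 10 points showed the same order at each strength in BN1. In the top bin BN1 called 56.1% of 22 subunit genes and 72.4% of 2571 other genes, and in the next 12.3% of 19 and 25.5% of 1809. From 70 to 80 it called 5.13% of 13 and 12.1% of 1265, and below 70 none of the subunit genes, of which 8, 6 and 2 fell in the bins from 60, 50 and 30. In ME the bins from the top gave 90.9% against 96.8%, 80.7% against 83.7%, 53.8% against 62.6%, 41.7% against 45.1%, and then, in the other direction, 38.9% against 33.6% from 50 to 60, with 0% of 2 genes against 24.1% from 30 to 40. Only the top bin held more than 20 subunit genes. The 2 genes of the top bin without any ME peak were Uqcr10 and Ndufs1, named after their values were seen.

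When each list was cut to its 3011 strongest peaks, the length of the shortest list, subunit genes were called most often in Control. Control libraries then called 25, 23 and 22 of the 85 genes, BN1 11, 12 and 13, MA9 14, 15 and 14, and ME 13, 15 and 15. No leukaemia library reached the lowest Control library. Other genes were called at 13.7 ± 0.216% in Control, 11.0 ± 0.317% in BN1, 13.6 ± 0.0615% in MA9 and 13.0 ± 0.0371% in ME. The ratio of shares ran from 1.91 to 2.11 in Control and averaged 1.28 ± 0.120 in BN1, 1.24 ± 0.0539 in MA9 and 1.29 ± 0.107 in ME (n = 3).

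**Figure D3:**
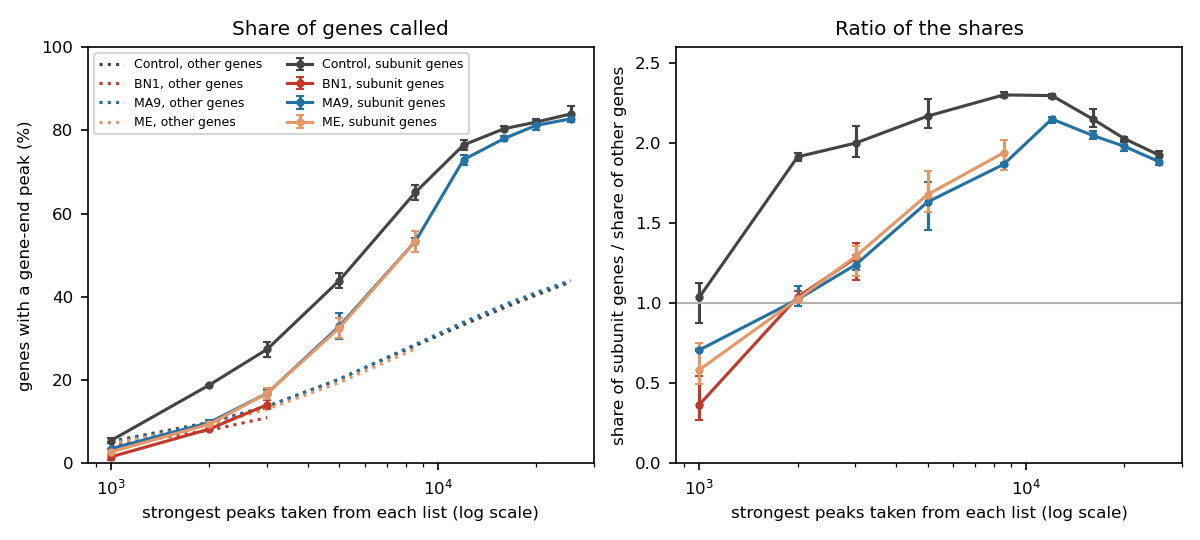
Left, share of subunit genes (solid, mean ± SD of 3 libraries) and other genes (dotted) with a gene-end peak among the strongest peaks of each list (x axis, log scale); right, ratio of the shares (mean and range). The Control ratio peaks at 2.30 with 8546 peaks, where MA9 stands at 1.87 and ME at 1.94.

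Other list lengths, chosen after seeing the data, gave gaps that depended on the length and the measure. With the 1000 strongest peaks Control called 4 to 5 subunit genes, MA9 3, ME 2 to 3 and BN1 1 to 2, and the ratio of shares was 1.04 in Control and 0.366 in BN1. With 2000 peaks Control called 16, MA9 8 to 9, ME 8 and BN1 7, and the ratios were 1.91, 1.02, 1.03 and 1.04. With 5000 peaks Control called 36 to 39, MA9 25 to 30 and ME 26 to 30. With 8546 peaks the counts were 54 to 57, 45 to 46 and 43 to 47. With 25541 peaks Control called 70 to 73 and MA9 70 to 71, which overlapped. With 12000 peaks Control called 64 to 66 and MA9 61 to 63, and with 16000 peaks 68 to 69 and 66 to 67. With 20000 peaks the counts, 69 to 70 and 68 to 70, overlapped. At every length taken from 1000 to 16000 peaks, each Control library called more subunit genes than any leukaemia library, by small margins at 1000 and 16000. Other genes were called at 20.3% in Control, 20.2% in MA9 and 19.4% in ME with 5000 peaks. With 12000 peaks they were called at 33.3% in Control and 33.9% in MA9, and with 16000 at 37.4% and 38.1%. Beyond 8546 peaks only MA9 was compared.

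Each gene was then tested across the 4 groups on its percentile within the lists of 3011 peaks, with 0 where no peak was listed, by an exact permutation test over 15400 partitions of the libraries with Benjamini-Hochberg adjustment over the 4066 genes tested. Of the 85 genes, 28 had a peak in at least 1 of these lists and were tested, and 20 of them passed at an adjusted p under 0.05 (71.4%), beside 68.6% of all genes tested. The share that differed was thus near that of all genes. Of the 20, the highest group mean was in Control for 17, in MA9 for Atp5g2 and Ndufv2 and in ME for Ndufa13 (53.7% of all 2790 passing genes were highest in Control). Of these 17, 8 entered the test only through their Control peaks, so the tally is a description and supports no difference between subunit genes and others. The other genes had no peak in these lists and have no test here.

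Atp5b, the catalytic beta subunit of ATP synthase, had the widest spread of group means. Its percentiles were 71.4, 69.3 and 74.4 in Control and 11.8, 0.598 and 15.5 in MA9, it was listed in 2 ME libraries at 6.79 and 10.8, and it was not listed in BN1 (exact permutation test, adjusted p = 0.0104). Control lay far above the leukaemias. Ndufs7, an iron-sulphur core subunit of complex I, had 63.2, 64.8 and 75.4 in Control, at most 42.5 in BN1, 24.9 in MA9 and 15.9 in ME (adjusted p = 0.0192, exact permutation test). Ndufa11 had 62.0, 63.8 and 58.2 in Control and was listed in 1 BN1 library at 10.1 and 1 MA9 library at 2.84 (adjusted p = 0.0285, exact permutation test). The strongest Ndufa11 peaks had summits at -722 to -693 bases relative to its start, near Vmac, in every group. Those of Control and MA9 also reached the start, and those of BN1 and ME did not.

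Listed in all 3 Control libraries and in no leukaemia library were 8 of the 28 genes: Ndufa2, Uqcrh, Uqcr10, Ndufs1, Cox7a2l, Ndufs5, Ndufa7 and Cox6a1. The same pattern was found in 10.8% of all genes tested. Ndufa2 had 57.4, 55.5 and 57.9, Uqcrh 54.5, 52.2 and 44.1, and Uqcr10 53.5, 43.0 and 54.2 in Control. They were tested only because Control listed them, and the pattern itself fixes their p at 0.0182 (adjusted p = 0.0285, exact permutation test), so these p-values add nothing to the description. Cox7a2l, Ndufs5 and Ndufa7 missed the threshold without any 1 MA9 library, any 1 ME library or BN1 replicate 2 or 3, with adjusted p of 0.0527 to 0.0553.

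Not all genes were highest in Control. Atp5g2, another copy of the subunit c gene, had 79.0, 76.5 and 78.1 in MA9, 66.9, 60.8 and 72.6 in ME, 48.4, 36.4 and 33.5 in Control and 30.8 and 15.0 in 2 BN1 libraries (exact permutation test, adjusted p = 0.0023). The MA9, ME and Control values of Atp5g2 did not overlap, and its summit lay at the same place, -112 to -115 bases relative to the start, in every library that called it. Sdhb had 45.5, 49.9 and 45.2 in Control, 41.6, 49.1 and 46.2 in MA9, 19.03, 29.2 and 32.2 in BN1 and 8.602, 17.5 and 4.17 in ME (adjusted p = 0.0042, exact permutation test). Control and MA9 overlapped for Sdhb, and BN1 and ME lay below both. Cox8a had 24.7, 45.6 and 45.2 in Control, 17.7, 25.7 and 23.1 in ME, 5.33 and 10.9 in 2 MA9 libraries and no peak in BN1 (adjusted p = 0.0042, exact permutation test).

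Ndufa13 was not listed in Control, had 48.5, 50.8 and 58.1 in MA9, 59.4, 65.9 and 56.1 in ME and 53.6 and 6.46 in 2 BN1 libraries (adjusted p = 0.0238, exact permutation test). These were different stretches of DNA: the strongest Control peak covered the Ndufa13 start and had its summit 374 to 389 bases past it, the ME and BN1 peaks lay upstream with summits at -1256 to -1248 bases, near Tssk6, and the MA9 peaks, 2221 to 2238 bases wide, spanned both. Ndufv2 had 18.6, 23.3 and 26.2 in MA9, 19.2, 16.1 and 16.3 in ME, 8.42 in 1 Control library and none in BN1 (adjusted p = 0.0062, exact permutation test). Ndufs8 did not pass (adjusted p = 0.106, exact permutation test), with values of 80.5 to 91.2 over all 12 libraries.

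**Figure D4:**
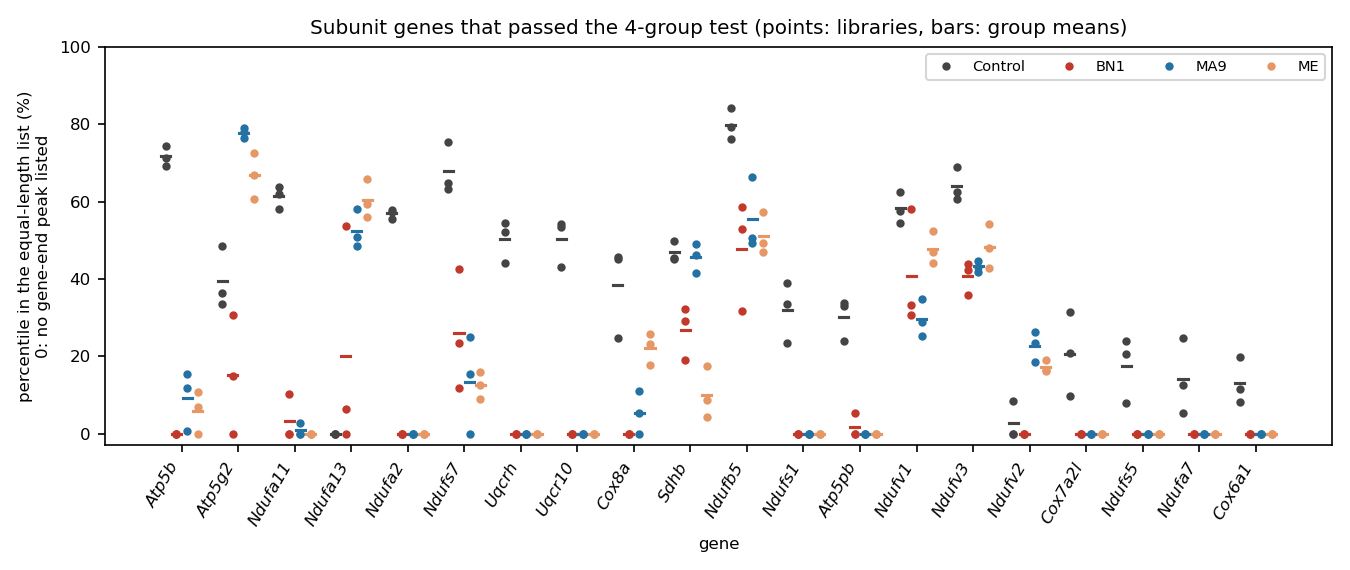
Percentile in the equal-length lists (y axis, %, 0 where no peak is listed) of the 20 subunit genes that passed the 4-group test (x axis, ordered by spread of group means); points are libraries and bars group means. The Control mean is highest for 17 genes, and the means of Atp5g2, Ndufa13 and Ndufv2 are highest in MA9 or ME.

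Genes around the chain were counted in the same way, from lists that hold no subunit gene. Some share a peak with a subunit gene, as Gabpa does with Atp5j, Mrpl47 with Ndufb5 and Mrpl36 with Ndufs6. The lists are therefore not fully separate from the subunit genes. Of 46 assembly factors, which build the complexes without staying in them, 41 were called in all Control, 42 in all MA9, 27 in all ME and 8 in all BN1 libraries, with 24 of the 41 lost in BN1, 9 in ME and 0 in MA9 (64.3%, 30.8% and 4.24% among all genes). Their difference from other genes of like Control strength was -2.54 ± 4.65 points in BN1, smaller than its spread over libraries. Of 78 mitochondrial ribosomal protein genes, 66, 67, 33 and 10 were called in Control, MA9, ME and BN1, with 48 of the 66 lost in BN1, 25 in ME and 1 in MA9 and differences of -4.34 ± 2.18 points in BN1 and -6.39 ± 0.588 in ME. Of 14 tricarboxylic acid cycle genes, which feed the chain, 12, 13, 8 and 5 were called, with 5 of the 12 lost in BN1, 4 in ME and 0 in MA9. Their difference was 10.9 ± 3.10 points in BN1 and, in the opposite direction, -7.30 ± 1.81 in ME.

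Among 18 regulators and carriers, MA9 called 13 in all 3 libraries, Control 12, ME 10 and BN1 6. Esrra, the oestrogen-related receptor alpha gene, stood at 96.7, 95.2 and 96.6 in BN1 and above 98 in every other library, and Yy1 at 92.6, 81.5 and 90.2 in BN1. Nrf1 had no BN1 peak and stood at 45.0, 24.95 and 37.2 in Control and 78.1, 73.1 and 78.0 in MA9, and it was in no list of equal length. Tfam, for the mitochondrial transcription and packaging factor, had no BN1 peak, and Cycs, the cytochrome c gene, was called in all 12. Of 12 glycolysis genes 10, 9, 8 and 4 were called in Control, MA9, ME and BN1, with 3 of the 10 lost in BN1. In the 4-group test 14 of 20 tested assembly factors, 16 of 23 ribosomal protein genes, 6 of 7 cycle genes, 5 of 9 regulators and carriers and 5 of 7 glycolysis genes passed (exact permutation test), with the highest mean in Control for 10, 11, 3, 3 and 1 of them. Among all genes 68.6% of those tested passed, so the 2 longest lists were near that share. Of all passing genes 53.7% were highest in Control, and no difference from that share was tested.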

How the data were processed

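Peak lists of 12 ATAC-seq libraries were used, 1 file per library. Genrich, Bowtie2 2.5.4, deepTools 3.5.1 and Picard 3.2.0 are named in the submitters' processing notes, with the mouse build GRCm38 (mm10). Their options are not given in the sources used here. The authors deposited for each peak a score, a signal value, a −log10 p and a −log10 q. The deposited score is capped at 1000 and was not used, and neither was the −log10 q. The deposited signal, never below 200.0, entered an alternative only. The lists give no reads, so depth is unknown and no counting interval is given. The part of depth in list length was not tested, and a gene without a listed peak was not called, which does not show closed chromatin.

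Peaks on chromosomes 1 to 19 were kept; 1 to 46 peaks per list lay elsewhere. Genes came from RefSeq (GRCm38.p6), with promoter windows from the same build. A gene-end peak lay at most 1 kb from the first or last base of the gene, and the strongest one by −log10 p gave the gene's percentile within its list. Equal-length lists held the 3011 strongest peaks of each library, ties being settled by the signal. Expected counts used the calling rate of other genes in the same bin of 5 percentile points. The 4-group exact permutation test compared the between-group sum of squares with that of all 15400 partitions of the libraries into 4 groups of 3 (smallest possible p = 6.49e-05), adjusted by Benjamini-Hochberg. Both computations were tested on simulated data. The changed genes there had 4 distinct group levels, so genes set apart in only 1 group were not covered. For the matched share the simulated calls followed the Control percentile, so the choice of reference was not covered. Python 3.11.15, numpy 2.4.6, pandas 2.3.3 and matplotlib 3.10.9 were used.

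The members, gene lists and tests were chosen with earlier results of these data known. Genes were named by rule: tissue-restricted isoforms; up to 10 lost genes of highest Control percentile and every gained gene per comparison with Control; up to 5 per pair of leukaemias; the 5 of highest mean percentile among those called in all 12 libraries; genes never called; and up to 10 passing genes by spread of group means. Others were named after their values were seen. Markers of T cells, NK cells, monocytes, promyelocytes, megakaryocytes and progenitors were called in all 3 libraries for 1 of 4, 0 of 3, 3 of 4, 0 of 4, 2 of 3 and 1 of 4 genes in Control, and non-blood markers for 0 of 5 in every group. In BN1 these 6 counts were 1, 0, 0, 0, 0 and 0, in MA9 1, 0, 3, 4, 0 and 2, and in ME 1, 0, 1, 2, 0 and 0.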

Additional observations from a re-analysis of the deposited data

Results flagged for a closer look

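The strength-matched difference at subunit genes had opposite signs in different leukaemias, with Control percentiles as the measure of strength. It was negative in all 3 BN1 libraries (-11.7 to -7.57 points) and all 3 ME libraries (-6.16 to -3.79 points) and positive in all 3 MA9 libraries (1.18 to 2.41 points). The mean in BN1 minus that in MA9 was -11.0 points, and the mean in MA9 minus that in ME was 6.63 points. Neither difference was tested. With strength taken from MA9 the BN1 difference was 1.19 points. In equal-length lists, with fewer genes called in Control, the MA9 difference was -16.2 points. In MA9 the rates of other genes already gave a mean of 68.2 of 70 genes, leaving little room above. Mitochondrial ribosomal protein genes had the same signs, at -4.34 points in BN1, -6.39 in ME and 3.67 in MA9. The MA9 difference was also positive for assembly factors (3.18), tricarboxylic acid cycle genes (3.83) and regulators and carriers (2.59), and negative for glycolysis genes (-7.11).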

How the results depend on the processing

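In equal-length lists 22 subunit genes were called in all Control libraries, 12 in MA9 and 12 in ME. Lost were 10 in BN1, 9 in MA9 and 10 in ME. Ndufa13 was gained in both MA9 and ME, and Ndufa4l2 was in no equal-length list. Shares among all genes are not given for the settings of this paragraph, so its counts do not compare subunit genes with others. A stricter minimum of −log10 p left 3 genes in all BN1 libraries, 1 lost in MA9 and 30 lost in ME. Asking for 2 of 3 libraries gave 17 in BN1 and 1 lost in MA9. The gain in MA9 fell to 0 with annotated starts only, under the stricter minimum and without restricted isoforms. Leaving out 1 library gave 10 to 16 genes in all BN1 libraries (16 without BN1 replicate 2) and 0 to 1 lost in MA9 (1, Ndufa9, without MA9 replicate 1).

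The strength-matched difference moved widely. In BN1 it was -13.7 points in equal-length lists, -5.26 with the deposited signal, -12.1 with a window of 500 bases, 1.19 with MA9 and 3.299 with ME as reference. In ME it was -12.8, -1.40 with the signal, -8.43 under the stricter minimum, -7.35 with a window of 2 kb and 1.11 with MA9 as reference. In MA9 it was -16.2 in equal-length lists, 2.34 with the signal, 3.89 under the stricter minimum and 0.0987 with ME as reference. The causes were not tested.

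In the exact permutation test across groups, lists as deposited gave 9877 passing genes of 10545 tested and 72 subunit genes of 74; list length and the genes tested change together there, and the cause was not tested. With presence or absence only, 0 genes and 0 subunit genes passed, and 1197 and 9 had an unadjusted p under 0.05. Leaving out 1 library gave 2477 to 2995 genes and 16 to 21 subunit genes. Ndufb5 missed the threshold without any 1 Control library (adjusted p 0.0517 to 0.0657), and Ndufv1 without any 1 library except BN1 replicates 1 and 2 and ME replicate 1 (up to 0.0952). The labels do not say whether replicate numbers pair the libraries. Correlations between libraries of different groups were taken over deviations, not over the libraries' own values. They ran from -0.0677 to 0.0821 for same-numbered libraries and from -0.0705 to 0.0724 for differently numbered ones. Such values show no pairing but cannot exclude it. With the replicate number as a block, 1332 genes and 5 subunit genes passed, all 5 among the 20, and the smallest p such a block allows is 0.00174.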
